A study of Homo sapiens with 12 samples.

Results

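The comparison described here sets NCCIT cells depleted of SETD2 by siRNA (siSETD2) against NCCIT cells that received a non-targeting control siRNA (siNTC). It comprises 4 of the 12 Affymetrix Human Gene ST arrays of the series, 2 per condition, chosen by the siRNA target named in the labels, and 18417 genes were tested out of 33297 transcript clusters on the array. NCCIT is a human embryonal carcinoma line, the malignant counterpart of early embryonic cells. The study asked how chromatin regulators of the MLL/COMPASS and Polycomb complexes shape the DNA methylome, and the remaining 8 arrays carry siWDR5, siEED, siRNF2 or both siEED and siRNF2 (siEED+RNF2), again 2 arrays each. All 12 arrays come from the same line grown in serum, and all cells, controls included, were transfected with an siRNA. The siRNA sequences and the transfection schedule used for siSETD2 are not described in the study's text. The titles of both siNTC arrays mark them as a re-analysis, so any difference in when or how those arrays were made cannot be told apart from the control condition. To have a reference that does not use them, siSETD2 was also compared with the mean of the other 4 knockdowns. The sources do not say whether the 2 arrays of a condition are independent cultures, and the p-values reflect only how much such arrays vary, which may be technical.

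SETD2 is the methyltransferase that places trimethylation on lysine 36 of histone H3. It travels with elongating RNA polymerase II, so the mark covers the bodies of transcribed genes. There the mark is bound by reader proteins and helps recruit DNA methyltransferases, splicing factors, mismatch repair proteins and deacetylase complexes. Other enzymes of the family, such as the NSD proteins, place mono- and dimethylation on the same residue.

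Levels are the log2 values deposited by the authors, and a difference of 1 is therefore a doubling. Medians over all transcript clusters ran from 6.32 to 6.36 on the 4 arrays. The siSETD2 arrays correlated at 0.9966 with each other and the siNTC arrays at 0.9960, and neither condition exceeded 0.9905 with any array of another condition. The embryonal carcinoma identity was checked against markers of pluripotent cells. SOX2 lay at 12.69 and 12.65 in siSETD2, LIN28A at 12.39 and 12.36 and SALL4 at 11.06 and 11.13, and none of these was called different from siNTC. L1TD1 (0.67) and DPPA4 (0.59), the other measured markers of this set, were called higher than siNTC, as described below. POU5F1, NANOG and TDGF1 have no transcript cluster of their own here and were not tested. Because RNA was taken from whole cultures, fewer cells of a kind and less RNA per cell cannot be told apart in any value below.

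SETD2 itself, the target of the siRNA, lay at 9.01 and 9.08 in siSETD2, at 10.78 and 10.81 in siNTC, and between 10.28 and 10.76 on the other 8 arrays. Both siSETD2 arrays were below all 10 others. The log2 fold change against siNTC was -1.75 (standard error 0.06, adjusted p = 1.11e-08 from limma), which leaves 29.7% of the control level. None of the other 8 measured genes listed here as H3K36 methyltransferases was called. At an unadjusted p under 0.05 from limma, 2 of the 9 were higher and 4 lower, SETD2 included. At that limit 3756 of all 18417 genes were higher and 3880 lower, the background for every such count below. NSD1, which places mono- and dimethylation, differed by 0.33 and SMYD2 by -0.34, both with an adjusted p under 0.05 from limma and both short of the 1.5-fold limit. NSD2 (0.15), NSD3 (0.07), SETMAR (0.07), SETD3 (0.15), SETD5 (-0.14) and the meiotic PRDM9 (-0.33) did not pass the limma test, and leaving out the second siNTC array alone brings PRDM9 to a call at -0.60. SETMAR moved to -0.00036 when chromosome medians were subtracted, as described further on.

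**Figure D1:**
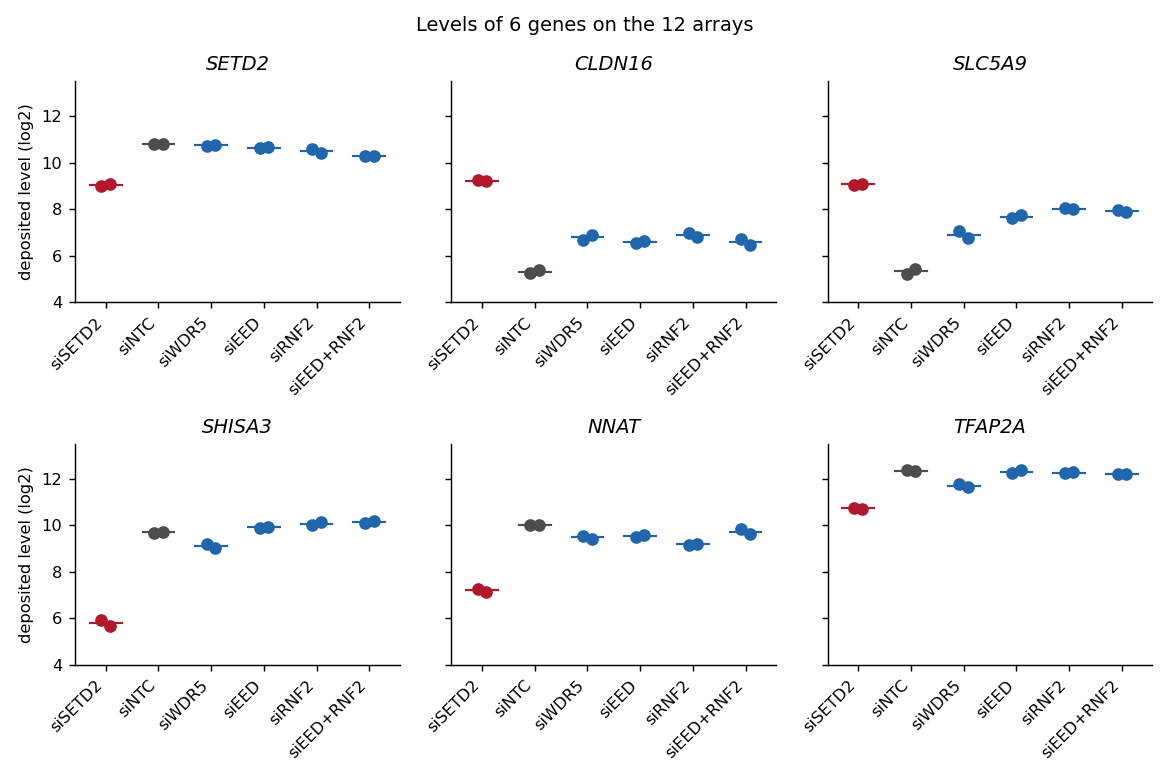
Deposited log2 level (vertical axis) of 6 genes on each of the 12 arrays, grouped by siRNA. Points are single arrays and horizontal lines the mean of 2 arrays. Both siSETD2 arrays lie beyond all 10 others in every panel, from 9.01 and 9.08 for SETD2 to 9.24 and 9.21 for CLDN16.

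A gene was called where limma's Benjamini-Hochberg adjusted p was under 0.05 and the change was at least 1.5-fold. Against siNTC, 486 genes were higher in siSETD2 (2.64% of those tested) and 586 were lower (3.18%), and in all of these both siSETD2 arrays lay beyond both siNTC arrays. Most changes were modest, since 85 of the higher and 135 of the lower genes reached 2-fold, and 5 and 15 reached 4-fold. Against the mean of the other 4 knockdowns, 473 genes were higher (2.57%) and 616 lower (3.34%). Called in the same direction against both references were 113 higher (0.614%) and 197 lower genes (1.07%), of which 111 and 193 lay beyond all 10 other arrays. These 113 make up 23.3% of the genes higher than siNTC, and the 197 make up 33.6% of those lower. The 2 comparisons share the siSETD2 arrays, so a gene called in both is one fact about those arrays and not 2.

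**Figure D2:**
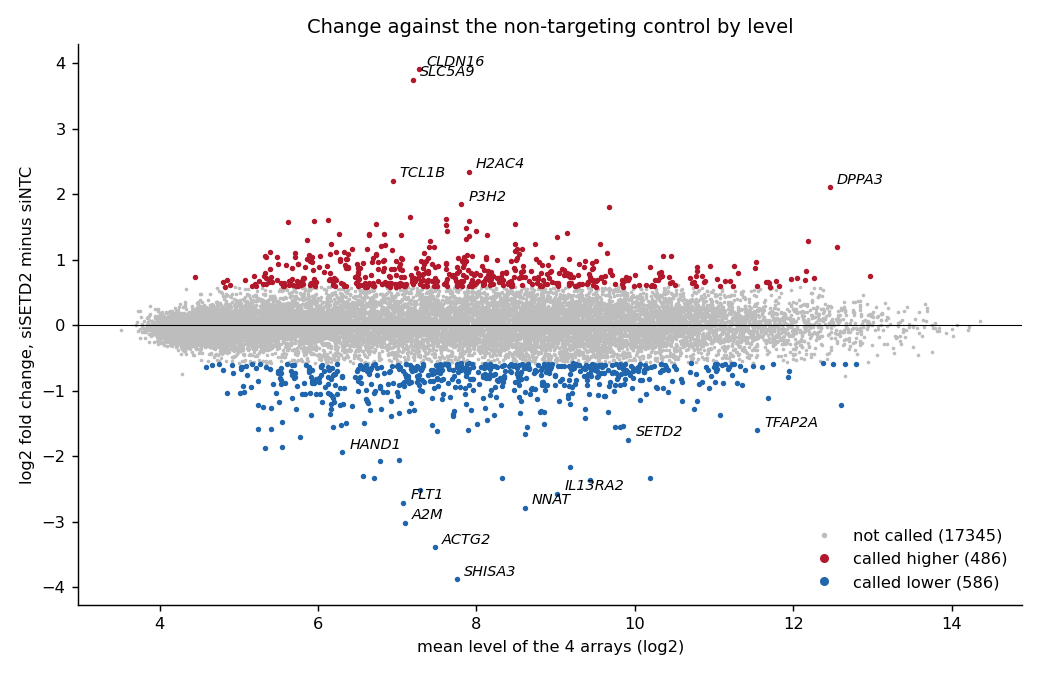
Log2 fold change of siSETD2 against siNTC (vertical axis) by the mean log2 level of the 4 arrays (horizontal axis) for the 18417 genes tested, with the 486 genes called higher in red and the 586 called lower in blue. The farthest points are CLDN16 and SLC5A9 above and SHISA3 and ACTG2 below, and the bulk of the genes lies within 1.5-fold of 0.

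The gene with the highest change was CLDN16, which encodes a tight junction claudin known for magnesium handling in the kidney. It lay at 9.24 and 9.21 in siSETD2, at 5.26 and 5.38 in siNTC, and from 6.45 to 6.96 on the other arrays. It thus stood above all other arrays, with the siNTC arrays lowest of all. The log2 fold change was 3.90 against siNTC (standard error 0.10, adjusted p = 7.91e-10 from limma) and 2.52 against the other knockdowns. P3H2, a prolyl 3-hydroxylase that modifies collagens, is the neighbour of CLDN16 among the tested genes in RefSeq order, and it was also higher. It lay at 8.61 and 8.85 in siSETD2, at 6.80 and 6.97 in siNTC, and from 6.94 to 7.23 on the other arrays. Its change was 1.85 (standard error 0.10) against siNTC and 1.60 against the other knockdowns. CLDN1, a claudin beyond CLDN16 in the same order, differed by 0.40 and was not called. The sequences upstream of CLDN16 and P3H2 are shown because both genes rose together, with that of SHISA3, the gene with the lowest change, for contrast. Each is the 250 bases before the transcription start in RefSeq (GRCh38.p14), written 5′ to 3′ on the gene's strand with every CG dinucleotide, the site of DNA methylation, in capitals: chr3:190290111-190290360 (plus strand) for CLDN16, chr3:190122279-190122528 (minus strand) for P3H2 and chr4:42397238-42397487 (plus strand) for SHISA3.
CLDN16: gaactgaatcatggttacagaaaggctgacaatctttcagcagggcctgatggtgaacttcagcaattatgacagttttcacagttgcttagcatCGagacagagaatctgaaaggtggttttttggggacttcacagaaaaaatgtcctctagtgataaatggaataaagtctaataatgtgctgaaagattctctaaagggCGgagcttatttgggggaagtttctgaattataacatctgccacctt
P3H2: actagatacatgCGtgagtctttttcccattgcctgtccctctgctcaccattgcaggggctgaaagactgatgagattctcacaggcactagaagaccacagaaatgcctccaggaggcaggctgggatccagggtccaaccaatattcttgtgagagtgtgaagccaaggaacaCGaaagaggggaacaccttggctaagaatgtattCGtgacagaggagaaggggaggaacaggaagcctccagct
SHISA3: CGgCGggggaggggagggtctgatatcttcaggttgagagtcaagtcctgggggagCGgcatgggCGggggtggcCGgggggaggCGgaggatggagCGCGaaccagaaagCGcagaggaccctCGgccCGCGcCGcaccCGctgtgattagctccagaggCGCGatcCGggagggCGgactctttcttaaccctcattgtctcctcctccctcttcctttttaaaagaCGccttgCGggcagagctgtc

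The CLDN16 stretch holds 2 CG dinucleotides, that of P3H2 holds 3 and that of SHISA3 holds 20. In the window of 300 bases used for all promoters, the counts are 2, 4 and 26. Over all 27305 promoters of the RefSeq table, 34.4% have 5 or fewer CG in a window of 300 bases, and the median is 14. Most genes that rose did not share the low CG content of CLDN16 and P3H2. Of the genes higher than siNTC with a promoter in the table, 8.2% had 5 or fewer CG, beside 15.3% of the lower genes and 18.4% of all tested genes. The median level of all genes tested was 6.85, and that of the higher and lower genes 7.74 and 8.11, so called genes were brighter than the rest. Within the same 300 bases, TATAAA on either strand stood in 6.61% of the higher, 8.39% of the lower and 9% of all tested genes, and in 12% of all promoters.

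The next largest rise was that of SLC5A9, a sodium-coupled transporter of mannose and glucose, which lay at 9.05 and 9.09 in siSETD2 and at 5.22 and 5.44 in siNTC. The other 8 arrays lay between, from 6.77 to 8.03. Its log2 fold change was 3.74 against siNTC (standard error 0.10, adjusted p = 1.01e-09 from limma) and 1.44 against the other knockdowns. SLC5A9 was the 1 called gene among 19 measured glucose transporters. Over 376 solute carriers, 14 were higher (3.72%) and 7 lower (1.86%) than siNTC, shares near the 2.64% and 3.18% of all genes. Among them were SLC35F1 (1.32), SLC16A14 (1.04) and the amino acid transporter SLC38A5 (-1.56). The claudins and tight junction genes held 2 higher (8%) and 1 lower (4%) of 25 measured. Beside CLDN16 these were CLDN11, at 0.63 against siNTC, and CLDN7, at -0.66. The call of CLDN11 ended without the second siSETD2 array (0.52) or the second siNTC array (0.47).

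On the falling side, SHISA3 encodes a protein of the endoplasmic reticulum that holds back Frizzled and FGF receptors. It lay at 5.94 and 5.68 in siSETD2, at 9.66 and 9.73 in siNTC, and from 9.02 to 10.17 on the other arrays. The 10 arrays without SETD2 siRNA formed 1 high group and both siSETD2 arrays lay far below it. The change was -3.88 against siNTC (standard error 0.09, adjusted p = 7.91e-10 from limma) and -4.00 against the other knockdowns. NNAT, the imprinted gene of neuronatin, lay at 7.28 and 7.15 in siSETD2, at 10.0 on both siNTC arrays, and from 9.17 to 9.83 on the others, with changes of -2.79 and -2.27. TFAP2A, a transcription factor of neural crest and trophoblast, lay at 10.76 and 10.71 in siSETD2, at 12.36 and 12.33 in siNTC, and from 11.65 to 12.36 on the others, with changes of -1.61 and -1.38. For these 3 genes no array of another condition reached the siSETD2 level.

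Further genes at the top of the siNTC comparison differed in how far the other knockdowns shared their level. DPPA3, a maternal and germ cell factor that guards against changes in DNA methylation, lay at 13.49 and 13.52 in siSETD2 and at 11.46 and 11.35 in siNTC. The other arrays ran from 12.78 to 12.96, so DPPA3 was called against both references, at 2.10 and 0.62. H2AC4, a replication-dependent histone H2A gene, rose by 2.34 and TCL1B, of the TCL1 proto-oncogene family, by 2.20 against siNTC, and their differences of 0.50 and 0.52 from the other knockdowns did not reach 1.5-fold. GPR50 (1.80), an orphan receptor related to melatonin receptors, and KBTBD7 (1.59), a ubiquitin ligase adaptor, were higher than both references. The axonal protein gene DPYSL5 (1.65), the trypsin inhibitor gene SPINK1 (1.62), GREB1L (1.60) and GALNT12 (1.58), which starts O-linked glycans, were called higher than siNTC and not higher than the other knockdowns, from which they differed by -0.06, -0.33, -0.46 and 0.39. For SPINK1 both siSETD2 arrays, at 8.43 and 8.42, even lay below the range of the other 8, 8.49 to 8.94.

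Among the falling genes, ACTG2, the smooth muscle gamma actin, lay at 5.97 and 5.59 in siSETD2, at 9.25 and 9.09 in siNTC, and from 6.26 to 8.70 on the others. Its changes were -3.39 against siNTC (standard error 0.12) and -1.53 against the other knockdowns. FLT1, a VEGF receptor (-2.71), IL13RA2, a decoy receptor for interleukin 13 (-2.58), PLXDC2 (-2.36) and SELENOP, a secreted selenium carrier (-2.33), likewise lay below both references, with -1.54, -1.94, -1.73 and -2.13 against the other knockdowns. A2M, a secreted protease inhibitor, fell to 5.49 and 5.68 from 8.53 and 8.69 in siNTC, but the other arrays were low too, from 5.94 to 6.55. Its change of -3.02 against siNTC compared with -0.60 against the other knockdowns. LYVE1, a hyaluronan receptor of lymphatic vessels, changed by -2.31 and -0.56, and SCG3, a secretory granule protein, by -2.08 and -0.60. ZNF729 differed from siNTC by -2.33 and from the other knockdowns by 0.00, with siNTC at 7.60 and 8.14 and all 10 other arrays between 5.27 and 5.76.

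**Figure D3:**
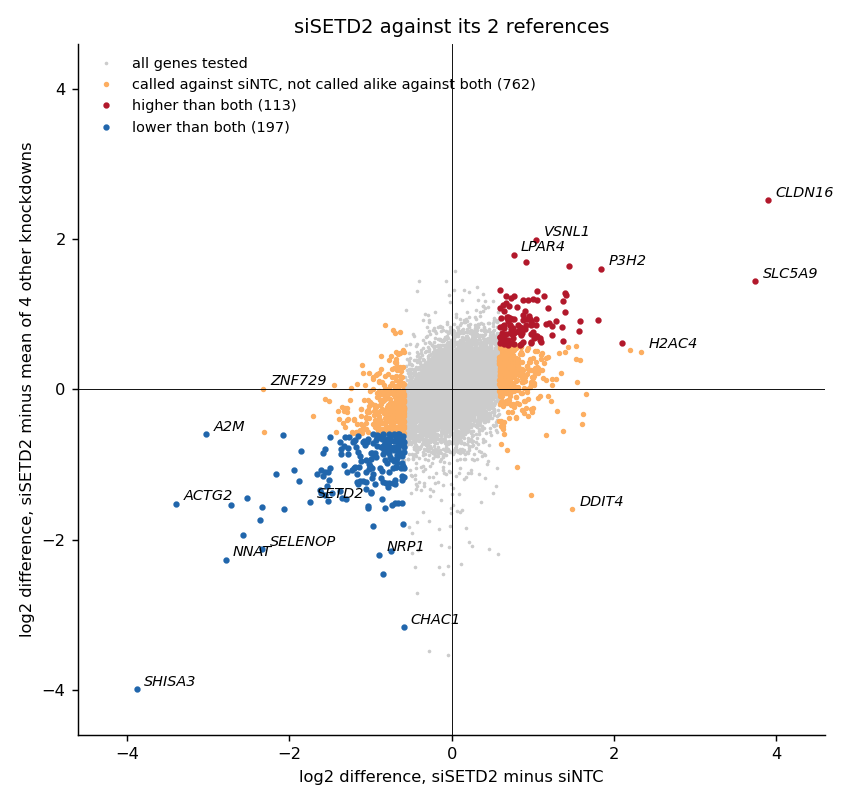
Log2 difference of siSETD2 from siNTC (horizontal axis) and from the mean of the other 4 knockdowns (vertical axis) for each gene tested. The 113 genes higher than both references are red, the 197 lower than both are blue, and the axes share the siSETD2 arrays. CLDN16 (3.90 and 2.52) and SHISA3 (-3.88 and -4.00) stand at opposite corners, while ZNF729 (-2.33 and 0.00) lies on the horizontal line.

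Genes called in 1 direction against both references were also ranked by their difference from the other knockdowns. VSNL1, a neuronal calcium sensor, lay at 8.60 and 8.70 in siSETD2, at 7.57 and 7.63 in siNTC and from 6.09 to 7.40 elsewhere. Its differences were 1.04 from siNTC and 1.99 from the other knockdowns. LPAR4, a lysophosphatidic acid receptor (0.77 and 1.80), RASL11B, a small GTPase-like protein (0.91 and 1.69), the synaptic adhesion gene LRFN5 (1.44 and 1.64), TMT1A, a thiol methyltransferase (1.05 and 1.31), and RAB3C, of synaptic vesicles (1.40 and 1.28), followed. For all of these genes, both siSETD2 arrays lay above every other array. CNTN1, a neural adhesion molecule, differed by 0.60 and 1.32, and its call against siNTC ended without the second siSETD2 array (0.47) or the second siNTC array (0.50). At the low end, CHAC1, which breaks down glutathione, lay at 7.44 and 7.46 in siSETD2, at 8.04 and 8.05 in siNTC and from 10.31 to 10.89 elsewhere (-0.59 and -3.17). The lipoprotein receptor gene VLDLR (-0.85 and -2.46), the glycine transporter gene SLC6A9 (-0.75 and -2.16), NRP1, a semaphorin and VEGF coreceptor (-0.89 and -2.20), and the cell cycle gene CCND2 (-0.97 and -1.82) showed the same order, with siSETD2 lowest, siNTC next and the other knockdowns highest.

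Lists of genes that act with the H3K36me3 mark held between 0 and 2 calls each, and calls over all genes were 2.64% higher and 3.18% lower. Of 15 measured readers and elongation partners, 0 were called against siNTC with limma (1 higher and 4 lower at an unadjusted p under 0.05), with log2 differences from -0.46 to 0.26. Of 7 H3K36 demethylases, KDM4D (14.3% of the list) differed by -0.61, which became -0.52 without the first siNTC array and -0.57 without the second siSETD2 array, short of the limit. The DNA methylation machinery held 1 call, a lower one, among 14 measured genes (7.14%). It was TET2, an enzyme that oxidizes methylcytosine, at 6.84 and 6.80 in siSETD2 against 7.67 and 7.80 in siNTC (-0.92). Of 30 splicing regulators, MBNL2 was higher (0.65) and the kinase gene CLK1 lower (-0.90), 3.33% each way. Of 13 mismatch repair and homologous recombination genes, PMS2 was higher (0.59, or 0.58 and not called without the second siSETD2 array) and BARD1 lower (-0.70), 7.69% each way. The medians of these 5 lists, from -0.05 to 0.25, compare with -0.01 over all genes.

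Pluripotency factors moved in 1 direction where they were called. Of 20 measured, 5 were higher than siNTC and 0 lower with limma (7 and 0 at an unadjusted p under 0.05), with a median of 0.08. The 5 make up 25% of the list, beside 2.64% of all genes called higher. At the unadjusted limit, 3756 of all 18417 genes were higher and 3880 lower. Beside TCL1B and DPPA3 these were L1TD1 (0.67), an RNA-binding partner of LIN28A, with KLF4 (0.62) and DPPA4 (0.59). The call of KLF4 ended without the first siSETD2 array (0.57) or the second siNTC array (0.51), and that of DPPA4 without the second siSETD2 or the second siNTC array (0.58 each). L1TD1 and DPPA3 were higher than both references. Of 30 germline and meiosis genes, MEIOB, a meiotic recombination factor (1.05), and PIWIL1, a piRNA-binding protein (1.04), were higher, and PIWIL1 also against the other knockdowns (0.86). These are 6.67% of that list. Of 15 cancer-testis genes, 0 were called with limma (3 higher and 1 lower at an unadjusted p under 0.05).

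Against siNTC, markers of differentiated cells that the cultures could hold were called lower more often than higher. Of 23 smooth muscle and fibroblast markers, 6 were lower and 0 higher with limma (13 and 1 at an unadjusted p under 0.05), with a median of -0.25. The 6 make up 26.1% of the list, beside 3.18% of all genes called lower. Over all 18417 genes, 3880 were lower and 3756 higher at the unadjusted limit. They were ACTG2, the matrix protein gene THBS1 (-1.39), the tropomyosin genes TPM1 (-1.21) and TPM2 (-0.77), CCN2 (-0.76) and POSTN (-0.68). The mean level of the list was 6.46 and 6.41 in siSETD2 and 6.88 and 6.91 in siNTC. Of 16 blood and endothelial markers, FLT1, LYVE1 and CD68 were lower (18.8%), and CD68 (-0.60) became -0.51 without the second siSETD2 array and lost its call. The mean level of that list was 4.83 and 4.86 against 5.28 and 5.23, and its median change was -0.16. Of 17 mesoderm markers, the cardiac and extraembryonic factor gene HAND1 lay at 5.31 and 5.37 in siSETD2 and at 7.31 and 7.25 in siNTC (-1.94), and the VEGF receptor gene KDR differed by -1.05, so 11.8% of the list was lower. The mean level of the mesoderm list was 5.56 and 5.60 against 5.82 and 5.76, while its median change was -0.06. Lower than both references were 3 smooth muscle and fibroblast markers, 1 blood and endothelial marker and 1 mesoderm marker, beside 1.07% of all genes. THBS1 (-0.40), CD68 (-0.21) and KDR (-0.30) were not called against the other knockdowns. The part that a change in the mix of cells plays in these values was not tested.

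Among 32 neural crest and neuroectoderm markers, 5 were lower (15.6%) and 1 higher (3.12%), beside 3.18% and 2.64% of all genes. NNAT, LHX2 (-1.08), a forebrain and eye factor, and GAP43 (-0.98), a growth cone protein, were lower than both references. SNAI2 (-0.91) and MAP2 (-0.66) were lower than siNTC, and STMN2, a microtubule regulator of neurons, was higher (0.90). The mean level of the list was 6.25 and 6.24 in siSETD2 and 6.44 and 6.43 in siNTC, while its median change was -0.04. Of 21 trophoblast and amnion markers only TFAP2A was called (4.76%), with list means of 5.73 and 5.68 against 5.88 and 5.86. Of 18 endoderm and yolk sac markers, 0 were called with limma (3 higher and 4 lower at an unadjusted p under 0.05), with list means of 5.58 and 5.49 against 5.61 and 5.55. Of 19 epithelial genes, 3 were lower (15.8%). They were RAB25, a vesicle GTPase (-1.52), SPINT1 (-0.80) and KRT8 (-0.60). Against the other knockdowns these 3 differed by -0.15, -0.33 and -0.01, and 0 genes of the list were lower than both references. The call of KRT8 ended without the first siSETD2 array (-0.47) or the first siNTC array (-0.56).

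Several genes of the extracellular matrix were lower. Of 29 collagens, laminins and other matrix genes, 5 were lower than both references (17.2%, beside 1.07% of all genes) and 1 was higher than siNTC (3.45%, beside 2.64%). LAMA2 lay at 7.50 and 7.58 in siSETD2 and at 8.97 and 8.85 in siNTC (-1.37, and -1.35 against the other knockdowns). Tenascin C (TNC) differed by -1.30 and -1.46, fibronectin (FN1) by -1.14 and -1.03, SPARC by -1.05 and -1.10 and COL18A1 by -1.0 and -0.93. For LAMA2, TNC, FN1 and SPARC the other 8 arrays lay in ranges that the siSETD2 arrays did not touch. LAMA1, the laminin chain of early basement membranes, was instead higher than siNTC (1.00) and at -0.24 against the other knockdowns. The list median was -0.02. Of 16 tubulins and actins, TUBB4A was higher than siNTC (1.54), 6.25% of the list beside 2.64% of all genes. Its difference of 0.41 from the other knockdowns was not called.

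**Figure D4:**
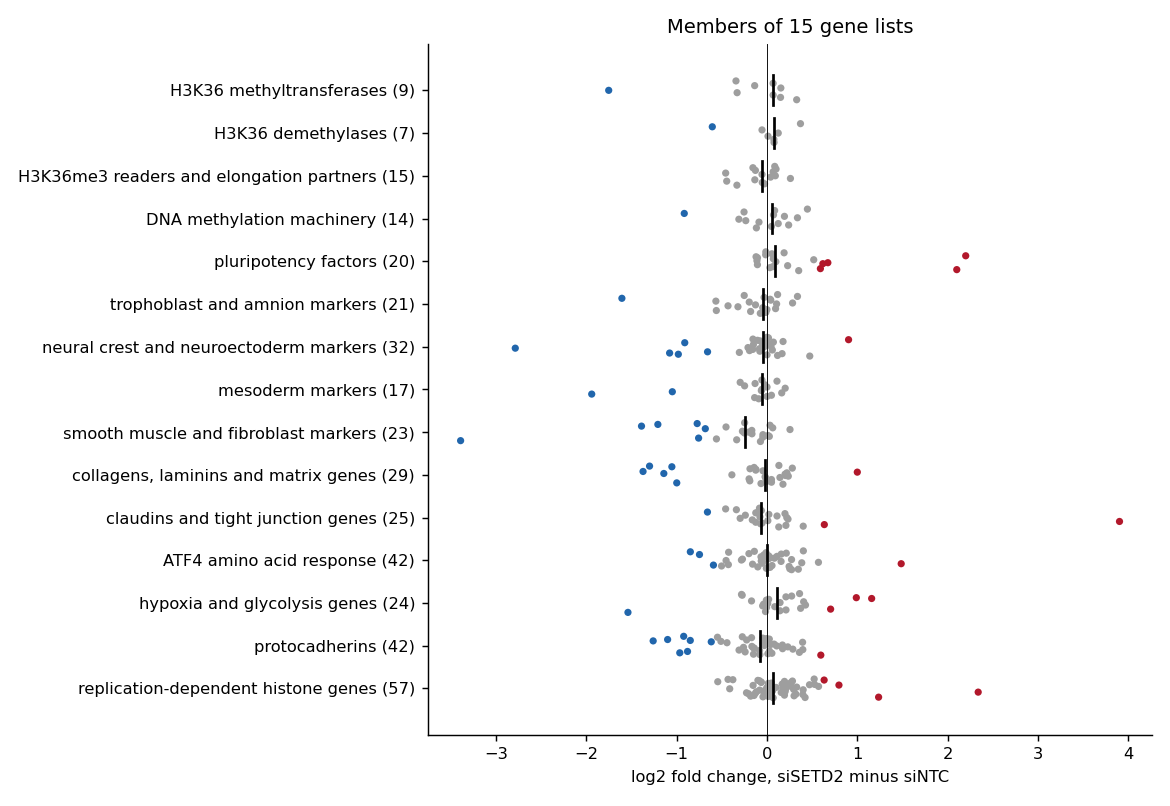
Log2 fold change of siSETD2 against siNTC (horizontal axis) for each measured member of 15 gene lists, with the number measured in brackets. Red points were called higher, blue points lower and grey points not called, and the black bar is the list's median. The smooth muscle and fibroblast list has the lowest median (-0.25), and the other medians lie close to 0.

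The signalling lists differed in how many members were called, and over all genes 2.64% were higher and 3.18% lower than siNTC. Of 36 WNT ligands and receptors, 0 were called with limma (10 higher and 4 lower at an unadjusted p under 0.05). Among all 18417 genes, 3756 were higher and 3880 lower at that unadjusted limit. Of 21 WNT inhibitors and targets, SHISA3 and FRZB (-0.80) were lower and SFRP2, a secreted antagonist, was higher (0.69, and 0.96 against the other knockdowns). This is 9.52% lower and 4.76% higher. The TGF-beta, BMP and NODAL list held 4 lower genes of 26 (15.4%). GREM1, a secreted BMP antagonist, lay at 5.46 and 5.60 in siSETD2 and at 7.07 and 7.04 in siNTC (-1.52, and -1.48 against the other knockdowns), below all other arrays. ID3 (-0.72), SMAD6 (-0.65) and the activin antagonist gene FST (-0.60) were also lower than siNTC. From the other knockdowns ID3 differed by -0.02, SMAD6 by -0.35 and FST by -1.80. Without the second siSETD2 array, SMAD6 became -0.56 and FST -0.53, and neither was called. In the FGF and ERK list, FGF19 was higher (0.93) and DUSP6 (-0.83), EGR1 (-0.72) and JUN (-0.69) were lower, of 27 measured (3.7% higher and 11.1% lower). The order differed among these early response genes, since DUSP6 and EGR1 were higher than in the other knockdowns (0.86 and 0.79) and JUN was lower (-1.26). Of 15 retinoic acid genes, STRA6 was lower (-0.81) and CYP26A1 higher (0.59), 6.67% each way. The call of CYP26A1 ended without the second siSETD2 array (0.57) or the second siNTC array (0.51). Of 27 HOX genes, 0 were called with limma (1 higher and 1 lower at an unadjusted p under 0.05).

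Stress and metabolic lists gave different counts against the 2 references. Of 42 genes of the ATF4 amino acid response, 1 was higher (2.38%) and 3 lower (7.14%) than siNTC, beside 2.64% and 3.18% of all genes, with a median of -0.01. Against the other knockdowns 33 of the 42 were lower, with a median of -1.29, while 3.34% of all genes were lower in that comparison. DDIT4, an mTORC1 inhibitor and the 1 gene higher than siNTC, lay at 8.65 and 8.57 in siSETD2, at 7.20 and 7.05 in siNTC and from 9.64 to 10.49 elsewhere. Of 24 hypoxia and glycolysis genes, PFKFB3 (1.16 and 0.88) and PFKFB4 (0.99 and 0.87), which set the level of a glycolytic activator, were higher than both references, and the vasodilator peptide gene ADM was lower than both (-1.54 and -1.28). BNIP3, a mitophagy receptor, was higher than siNTC (0.70), which brings this list to 12.5% higher and 4.17% lower. Of 17 cholesterol synthesis and uptake genes, HMGCS1 (-0.70), DHCR7 (-0.63) and SC5D (-0.59) were lower than siNTC (17.6% of the list), and SC5D became -0.50 without the second siSETD2 array and -0.52 without the first siNTC array, short of the limit. HMGCS1 was higher than in the other knockdowns, by 0.75. SEL1L (0.60) was called among 18 ER chaperones (5.56%).

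Each proliferation list held 1 call against siNTC. Of 33 mitosis genes, SPC25 of the kinetochore was lower than siNTC (-0.77), a share of 3.03% beside 3.18% of all genes. Against the other knockdowns 7 of the 33 were higher, while 2.57% of all genes were. Of 29 replication genes, GINS2 of the replicative helicase was higher (0.66), a share of 3.45% beside 2.64% of all genes. Of 22 p53 targets TP53INP1 was higher (4.55%), at 0.65, or 0.56 and not called without the second siSETD2 or the first siNTC array. Of 28 interferon-stimulated genes, IFITM1 (1.19) and IFIT5 (0.86) were higher and BST2 (-0.70) and RIGI (-0.60) lower, 7.14% each way. In the same order, their differences from the other knockdowns were -0.09, 0.57, -1.51 and -0.04. BST2 became -0.55 without the second siNTC array, and RIGI -0.52 without the first siSETD2 and -0.55 without the first siNTC array, and these calls ended. Of 27 imprinted genes, NNAT was lower and INPP5F higher (0.82), 3.7% each way.

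In 3 families the probes of 1 gene may also bind near-identical relatives, so single members are uncertain. Of 57 replication-dependent histone genes, 4 were higher than siNTC (7.02%, beside 2.64% of all genes), H2AC4, H1-3 (1.24), H3C11 (0.80) and H4C6 (0.63, or 0.55 and not called without the second siNTC array), and 0 were called in 1 direction against both references. Of 42 protocadherins, 7 were lower (16.7%) and 1 higher (2.38%), beside 3.18% and 2.64% of all genes. PCDHB3 (-1.10), PCDH18 (-0.97), PCDHGB4 (-0.92) and PCDH7 (-0.88) were among the lower ones. Their differences from the other knockdowns were 0.33, 0.00, -0.65 and -0.15. Of the 42, 3 were lower than both references, beside 1.07% of all genes. The 1 higher gene, PCDH1 (0.60), lost its call with quantile normalization (0.57) and without the first siSETD2 or the first siNTC array (0.58 each). PCDHB15 (-0.62) lost its call without the second siSETD2 array (-0.47) or the second siNTC array (-0.54). PCDH1 and PCDHB15 were named after their values were seen. Of 494 ZNF zinc finger genes, 37 were lower (7.49%) and 7 higher than siNTC, beside 3.18% and 2.64% of all genes. Against the other knockdowns, 29 of the 494 were higher and 18 lower, beside 2.57% and 3.34% of all genes in that comparison. ZNF486 (-2.34 and -1.57) and ZNF90 (-1.56 and -1.09) were lower than both references, and ZNF69 was lower than siNTC (-1.31). Of 192 small nucleolar RNA genes, 9 were higher (4.69%) and 16 lower (8.33%), and 7 of the 16 belong to the SNORD116 cluster on chromosome 15.

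Genes that were called lower often lay side by side. In RefSeq order, 20.5% of the genes lower than siNTC had an adjacent tested gene that was also lower, while 6.06% of all placed genes had such a neighbour. For higher genes the shares were 12.6% and 5.12%. There were 8 rows of at least 3 adjacent genes called lower, with 38 genes in all, and 1 such row of higher genes (PHLDB2, ABHD10 and TAGLN3). The longest held 13 genes on chromosome 7, which were chosen for description after their values were seen. It runs from LINC03129 (-1.29) and VKORC1L1 (-0.63) through the lysosomal enzyme gene GUSB (-0.99), the urea cycle gene ASL (-1.07), CRCP (-0.92), TPST1 (-0.87), LINC00174 (-1.62), KCTD7 (-0.90), RABGEF1 (-1.33), TMEM248 (-0.92), the ribosome assembly gene SBDS (-0.88) and TYW1 (-0.82) to STAG3L4 (-2.17). The median of the 13 was -0.92, and 8 of them were also lower than in the other knockdowns. VKORC1L1 became -0.58 and was not called without the second siSETD2 array. Each of the other conditions, which share the siNTC arrays, also had a median below 0 over these 13 genes, with siWDR5 at -0.60, siEED at -0.44, siRNF2 at -0.40 and siEED+RNF2 at -0.41.

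GUSB, often used as a reference gene for expression, differed from the other knockdowns by -0.85, and its differences from siNTC in the other 4 conditions ran from -0.27 to -0.08. Before this row, 4 adjacent zinc finger genes (ZNF680, ZNF107, ZNF138 and ZNF273) were lower than siNTC with a median of -0.79, and none of them was lower than in the other knockdowns. With the clusters of a gene averaged, ZNF138 became -0.49 and was not called, which breaks this row. On chromosome 19 a row of 6 (ZNF93, ZNF682, ZNF90, ZNF486, the pseudogene ZNF826P and ZNF737) had a median of -1.42, and 3 of them were also lower than in the other knockdowns.

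Medians taken by chromosome were shifted as well. Over 8977 genes with a mean level of at least 7, the median difference from siNTC was 0.00 and 49.6% of the genes lay below 0. On chromosome 15 the median was -0.31, with 85.6% of 312 genes below 0. On chromosome 2 it was -0.13, with 67.4% of 602 below 0, and the other knockdowns ran from -0.11 to -0.07. On chromosome 7 it was 0.14 in spite of the row of 13 genes, with 35.2% of 409 below 0, and the other knockdowns ran from 0.05 to 0.10. Chromosome 21 lay at -0.12, with 67% of 94 genes below 0 and the other knockdowns from -0.06 to -0.04, and chromosome 11 at -0.11, with 64.2% of 511 below 0 and the other knockdowns from -0.11 to -0.05. All of these medians share the siNTC arrays, and on each of these chromosomes the other knockdowns were shifted in the same direction as siSETD2. The shifts were not even along chromosomes 2 and 7. Block medians were taken over 25 consecutive genes at that level. On chromosome 2, 11 of 24 lay at or below -0.25, and on chromosome 15, 9 of 12. The first block of chromosome 2 lay at 0.14, and the block opening with SPC25 at -0.45. On chromosome 7, 5 blocks lay at or above 0.25, while the block opening with ZNF117 lay at -0.84. Of all 350 blocks, 26 lay at or below -0.25, 3 of them on chromosome 11. The 2 siSETD2 arrays gave medians of -0.29 and -0.33 on chromosome 15, and the siNTC arrays gave 0.02 and -0.02 about their own mean. On chromosome 15 the other conditions lay between, siWDR5 at -0.17, siEED at -0.18, siRNF2 at -0.15 and siEED+RNF2 at -0.14, so siSETD2 lay lowest and siNTC highest, and against the other knockdowns the median was -0.17. Of all tested genes on chromosome 15, 12.2% were called lower than siNTC and 0.521% higher, and on chromosome 2 the shares were 6.84% and 1.82%. THBS1, TPM1, GREM1, SMAD6, SPINT1, STRA6, CHAC1 and SCG3, named above among the lower genes, lie on chromosome 15. ACTG2, CLK1, BARD1, FRZB, SPC25 and FN1 are among those on chromosome 2. With each array's chromosome medians subtracted, 473 genes were higher and 512 lower than siNTC, THBS1, TPM1, GREM1 and SCG3 stayed called, and SMAD6 (-0.32), SPINT1 (-0.47), STRA6 (-0.48) and CHAC1 (-0.26) did not. The same step also ended the calls of PCDH1 (0.58), KDM4D (-0.51), BARD1 (-0.54), PMS2 (0.45), KLF4 (0.57), DPPA4 (0.52), CLDN11 (0.57), CYP26A1 (0.52), MAP2 (-0.50), SEL1L (0.56), DHCR7 (-0.54) and SC5D (-0.50). Since this step takes out only the median of a chromosome, it leaves part of a shift confined to a stretch, as on chromosomes 2 and 7. Calls that stayed or ended off chromosome 15 therefore do not show whether such a shift is part of them. The cause of these shifts was not tested.

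**Figure D5:**
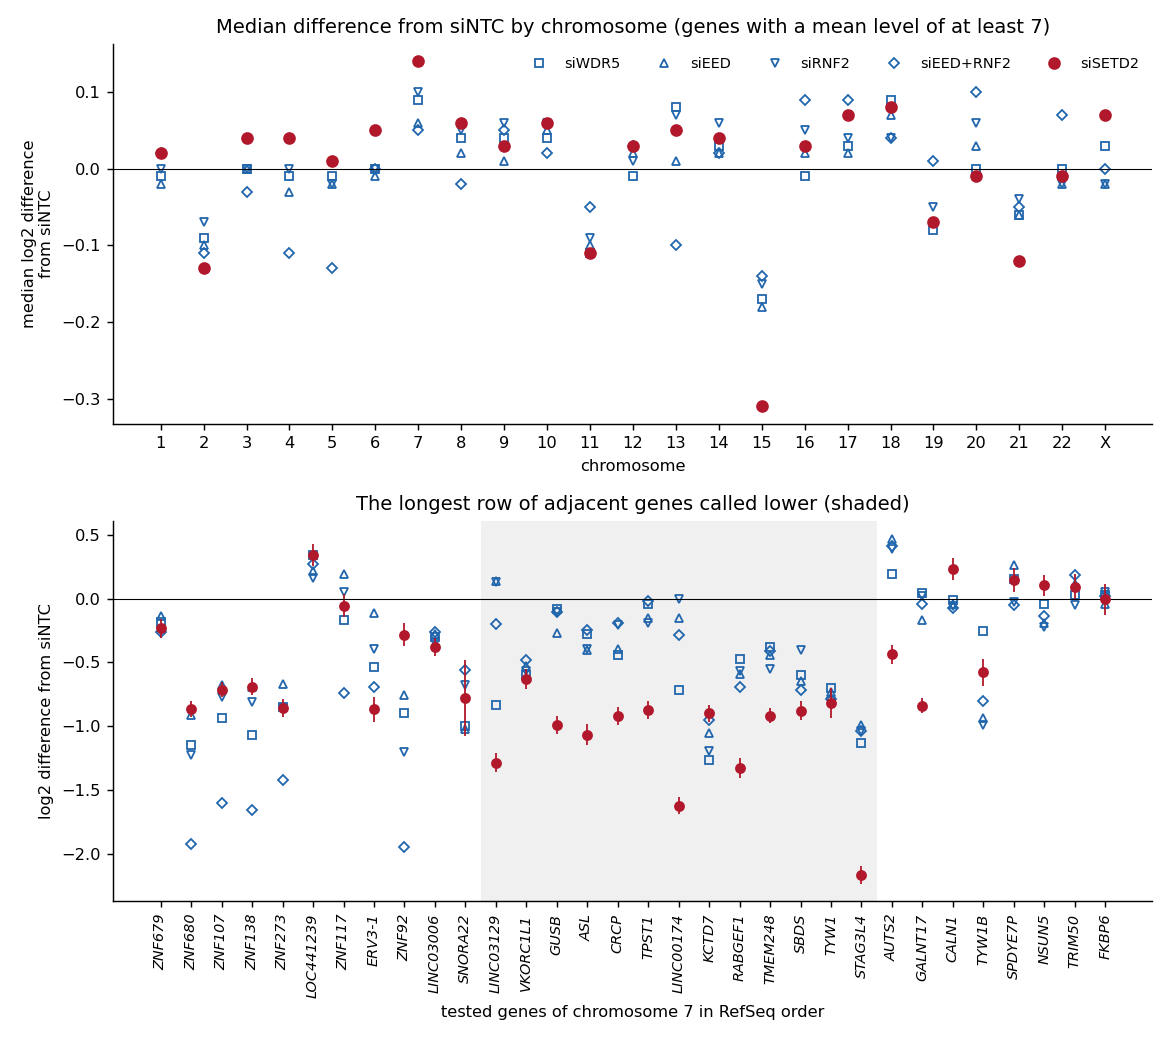
Upper panel, median log2 difference from siNTC by chromosome for each knockdown, over genes with a mean level of at least 7, with siSETD2 as filled red circles and the other knockdowns as open blue symbols. Lower panel, log2 difference from siNTC of single genes in their order on chromosome 7, with the standard error for siSETD2 as bars and the row of 13 genes called lower shaded. Chromosome 15 has the lowest median in siSETD2 (-0.31), and all 13 shaded genes lie at or below -0.63.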

How the data were processed

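RNA of NCCIT cells (250 ng per array) was hybridized to Affymetrix Human Gene ST arrays, and 2 siSETD2, 2 siNTC and 8 arrays of other knockdowns were used, grouped by the labels. The authors deposited log2 values for 33297 transcript clusters. Background correction and normalization preceded deposit, since GCRMA and Partek are listed among the submitters' processing notes. Neither tool's version is given in the sources used here, and the background correction could not be varied. No value column was left out (0 not used). The number of arrays limits the precision.

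Clusters were named through the platform annotation, updated by gene number against RefSeq (GRCh38.p14). Of the clusters, 12083 list no gene, 19460 list 1 (19429 matched by number) and 1754 list several, and the last were not named. For 769 genes with several clusters, the one with the highest mean stood for the gene. This left 18417 genes. The transcript of the siRNF2 target was not analysed here. RefSeq also gave gene order and promoter sequences.

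A mean per condition was fitted to the 12 arrays with limma 3.58.1 in R 4.3.3 (6 residual degrees of freedom), with empirical Bayes moderation. The contrasts were siSETD2 minus siNTC and siSETD2 minus the mean of the other 4 knockdowns. A gene was called at a fold of at least 1.5 with p under 0.05 after Benjamini-Hochberg adjustment. The fit was tested on simulated data.

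The genes named were SETD2, CLDN16, SLC5A9, SHISA3, NNAT and TFAP2A, the 12 highest and 12 lowest changes against siNTC, up to 4 called members of each of 40 gene lists, the 10 highest and 10 lowest differences from the other knockdowns among genes called against both references, and the H3K36 methyltransferases, without noncoding RNAs and pseudogenes. Where a list had 6 or fewer calls, the remaining members were also named after their values were seen, as were the genes in rows of neighbours. Members and lists were chosen with earlier results of these data known. Alternatives covered the arrays in the fit, a replicate block, variance moderation, quantile normalization, 2 centrings, averaging of a gene's clusters, a filter that drops the 30% dimmest genes, thresholds and leaving out each array. Subtraction of chromosome medians was chosen after seeing the data. Python 3.11.15 with matplotlib 3.10.9 drew the figures.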

Additional observations from a re-analysis of the deposited data

How the results depend on the processing

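Counts of genes called in siSETD2 depended on the fold threshold. With none, 2912 genes were higher and 2917 lower than siNTC, 3885 and 3568 than the mean of the other knockdowns, and 1497 and 1465 than both references. At 2-fold these were 85 and 135, 56 and 173, and 14 and 48. Under the remaining alternatives all 6 counts stayed within 1.5 times the reported ones. Leaving out each siSETD2 or siNTC array in turn gave 489 to 561 higher and 568 to 632 lower genes against siNTC. The replicate numbers of the titles do not pair the arrays (deviations of siSETD2 and siNTC correlated at -0.01, and at -0.11 to 0.16 over 15 pairs of conditions), and with the replicate block 484 genes were higher and 587 lower than siNTC. Centring each array on its median over genes turned the split against the other knockdowns from 43.4% to 56% higher (638 higher and 502 lower), while against siNTC it was 43.8% higher. Of 1506 values for 116 named genes, 1456 kept their direction and their side of the thresholds, 48 lost the call, 1 gained it (PRDM9) and 1, the uncalled SETMAR, changed sign (-0.00036). The lost calls came from 21 genes, most of them near 1.5-fold. Beside those given in the report, they ended under array centring (CD68, KRT8 and FST at -0.58, CHAC1 and SC5D at -0.57, RIGI at -0.58, PMS2 and CYP26A1 at 0.58) or quantile normalization (CNTN1 and CYP26A1 at 0.57, RIGI at -0.58). Dim genes carry the least signal over background, and leaving out the 30% dimmest moved no count by more than 1.5 times.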
